A study of Mus musculus with 8 samples.

Results

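Collagens are the main structural proteins of the extracellular matrix. Each molecule is a rope of intertwined chains in which every chain has its own gene, and several types need chains from different genes in a fixed proportion. Fibrillar collagens (types I, III and V) bundle into the fibres of skin, tendon and bone, cartilage collagens (types II, IX and XI) build the fibres of the embryonic skeleton, and basement membrane collagens (types IV, XV and XVIII) form or border the sheets under epithelium and around vessels. The transcripts of these genes are described here in 4 genotypes of mouse, from whole embryos collected at about embryonic day 12.5. The members are all rows of the deposited mRNA table whose symbol has the form Col, a number, a and a number: 44 genes of 29639 rows, of which 7 were classed as fibrillar, 8 as cartilage, 8 as basement membrane and 21 as other.

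The embryos were wild type (WT) or carried an insertion of 3 polyadenylation cassettes, made by Easi-CRISPR, in the promoter of Gtl2 (also called Meg3) in the imprinted Dlk1-Dio3 domain. The insertion came from the father in PKI, from the mother in MKI and from both parents in HOMO, and the question is how collagen transcripts differ between these genotypes. All embryos that carry an insertion carry the same one, and neither the mouse strain nor whether embryos were pooled is given in the sources used here. The labels list 8 samples, 2 per genotype, but the table has 1 column per genotype, so no spread within a genotype can be measured and no test is possible: every difference below is between single columns. In whole embryos, fewer cells of a type and less transcript per cell cannot be told apart.

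The columns were not equally alike. Across the 13279 genes at 1 FPKM or more in at least 2 columns (FPKM, fragments scaled by transcript length and library size), Pearson's r between log2 columns was 0.961 to 0.975 among WT, PKI and HOMO and 0.864 to 0.882 between MKI and each of them. The MKI column therefore stood apart in all genes, and every MKI value below rests on it. The sequencing depth behind the FPKM values is unknown. The sample titles carry a slightly later day for each of PKI, MKI and HOMO in turn, whereas the series' design names day 12.5 alone, so genotype and any such difference in age cannot be told apart. Uty, a Y-linked gene, was listed at 0 in WT and at 12.3 to 18.8 FPKM in the other columns, so the columns were not matched for embryo sex.

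Collagen genes held nearly the same part of the summed FPKM of all genes in WT (0.282%) and HOMO (0.280%). Their part was smaller in PKI (0.205%) and MKI (0.180%). The values below are FPKM levels and not such parts, and the column totals ran from 250132 FPKM (MKI) to 297377 FPKM (PKI). Summed over the 44 genes, the level was 792 FPKM in WT and 792 in HOMO, against 610.4 in PKI (77.1% of WT) and 449 in MKI (56.8% of WT). The sum for the cartilage class was, as a share of WT, 50.7% (PKI), 39.0% (MKI) and 86.6% (HOMO). For the basement membrane class it was 69.9%, 35.1% and 110.1%, and for the fibrillar class 80.9%, 62.5% and 102.3%, in the same order. Collagens of the other class summed to 93.0%, 68.5% and 98.9% of WT. The same 3 fibrillar genes, Col3a1, Col1a2 and Col1a1, ranked highest in every column and together gave 46.7% (WT) to 50.0% (MKI) of the collagen sum.

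**Figure D1:**
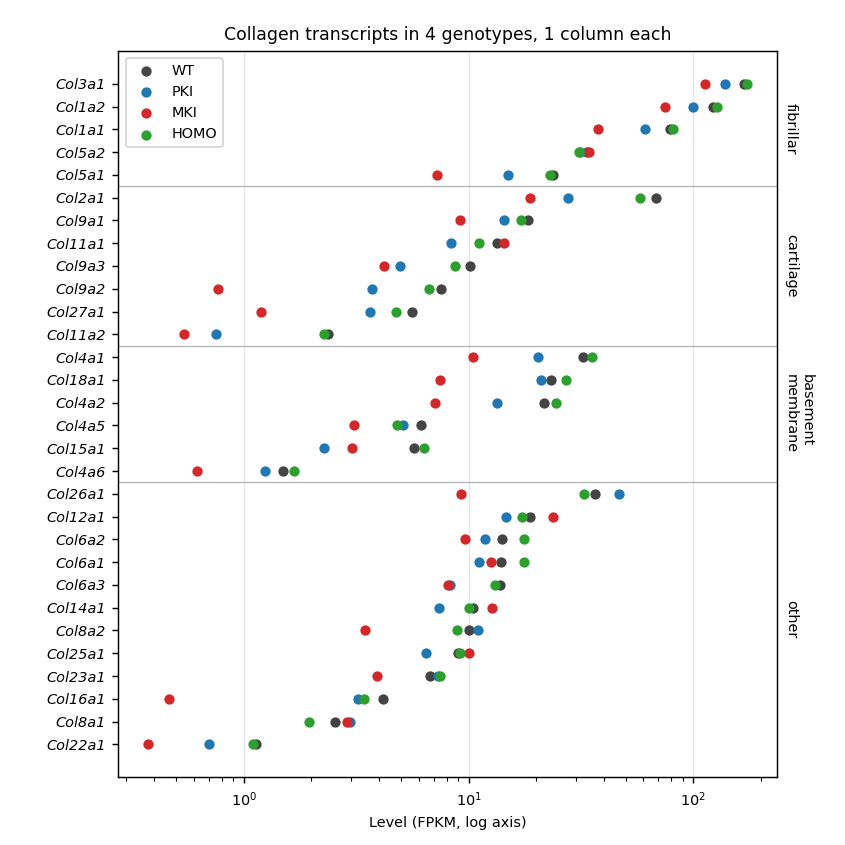
Level of the 30 collagen genes past the expression filter, in FPKM on a log axis, with 1 point for each of the 4 genotype columns and genes ordered by WT level within each class. WT and HOMO points lie close together, while MKI points lie left of WT for 24 of the 30 genes and right of it for Col5a2, Col11a1, Col12a1, Col14a1, Col25a1 and Col8a1.

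Of the 44 genes 30 passed the filter. The 14 others lay between 0 and 1.68 FPKM: 5 of them reached 1 FPKM in a single column and 9 in none. Col10a1, the collagen of hypertrophic cartilage, which forms later in the skeleton, was listed at 0 in WT, MKI and HOMO and at 0.0683 FPKM in PKI. Col4a3 and Col4a4, chains of the mature kidney filter, stayed at or below 0.0563 and 0.117 FPKM. Differences are given on the log2(FPKM + 0.5) scale, which understates the folds of low genes, and "2-fold" means at least 1 on that scale.

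In PKI, 26 of 30 collagen genes lay below WT, 4 lay above it and 3 were 2-fold lower, against 1.45% of all genes 2-fold lower, 59.5% below WT and 40.5% above. The median difference was -0.36, beside -0.07 over all genes. In MKI, 24 of 30 lay below WT, 6 lay above it and 13 (43.3%) were 2-fold lower, against 19.1% of all genes 2-fold lower, 55.4% below WT and 44.6% above. The median was -0.89, beside -0.11 over all genes. In HOMO, none of the 30 passed 2-fold in either direction, against 0.783% of all genes 2-fold lower and 0.67% higher, while 18 lay below WT and 12 above, against 61.5% and 38.5% of all genes. The HOMO median was -0.05, beside -0.06 over all genes, and it turned slightly positive under other scalings. No collagen gene was 2-fold higher than WT in any knock-in column, where 0.7% of all genes were so in PKI and 1.22% in MKI. These comparisons share the WT column. Markers of other cell types also differed: in PKI all 4 hepatocyte markers were 2-fold lower than WT (median -1.29) and all 4 neuron markers lay below it (median -0.59), and in MKI 3 of 4 of each lay above WT. In WT the hepatocyte markers summed to 544 FPKM, against 198 (PKI), 1042 (MKI) and 675 (HOMO), and the neuron markers to 385, against 249.5, 316 and 335. The part of these cell types in the collagen values was not tested.

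**Figure D2:**
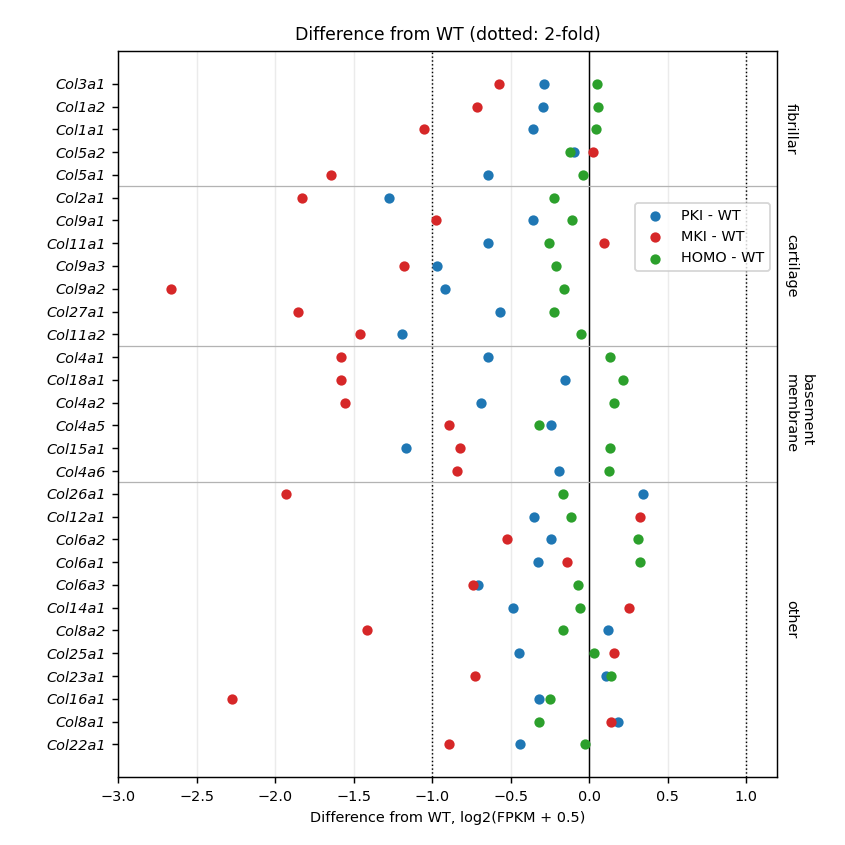
Difference of each knock-in column from WT on the log2(FPKM + 0.5) scale for the 30 genes past the filter, with dotted lines at 2-fold. HOMO points lie between -0.32 and 0.32, while PKI points reach -1.27 and MKI points reach -2.66.

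The fibrillar class was the most abundant. Col1a1 and Col1a2 encode the chains of type I collagen, the main fibre of skin, tendon and bone. Col1a1 (chromosome 11) stood at 78.7, 61.3, 37.8 and 81.1 FPKM, where sets of 4 values here and below follow the order WT, PKI, MKI, HOMO. Col1a2 stood at 123, 99.9, 74.6 and 127 FPKM. Col3a1, the sole chain of type III collagen of soft and elastic tissues, stood at 168, 138, 112 and 174 FPKM. All 3 were highest in HOMO, closely followed by WT, and lowest in MKI. For Col1a1, Col1a2 and Col3a1 the PKI differences from WT were -0.36, -0.30 and -0.28, the MKI differences -1.05, -0.72 and -0.58, and the HOMO differences 0.04 to 0.05. Under trimmed-mean scaling Col1a1 in MKI was no longer 2-fold lower.

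Upstream sequences of the 2 most abundant genes, which kept the same order of columns, are shown to let their starts be compared. They are the 150 bases before the first RefSeq base of the gene on GRCm38.p6, 5′ to 3′, in lower case, with matches on either strand in capitals. The motifs searched were the TATA box, spelled TATAAA, the CCAAT box, named by its own letters, and the GC box, spelled GGGCGG. The window of Col1a2 is chr6:4505468-4505617 and that of Col3a1 chr1:45311388-45311537, both on the plus strand.
Col1a2: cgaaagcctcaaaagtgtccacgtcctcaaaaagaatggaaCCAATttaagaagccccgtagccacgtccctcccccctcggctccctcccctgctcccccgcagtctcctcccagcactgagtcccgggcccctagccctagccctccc
Col3a1: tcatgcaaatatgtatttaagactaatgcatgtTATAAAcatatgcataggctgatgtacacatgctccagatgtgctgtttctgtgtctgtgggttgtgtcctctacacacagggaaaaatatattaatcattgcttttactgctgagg
The Col1a2 window is 62.7% G and C and holds 1 match to the CCAAT box, which starts 109 bases before the gene. The Col3a1 window is 37.3% G and C and holds 1 match to the TATA box, 117 bases before the gene. The 2 windows are thus of unlike base composition, and any relation of composition to the differences between columns was not tested. Over windows of 150 bases before 27025 RefSeq gene starts, 25.3% held the CCAAT box, 8.08% the TATA box and 28.97% the GC box. Of the 35 collagen genes found there, 7 held the CCAAT box, 4 the TATA box and 19 the GC box. The median share of G and C was 62.7% in the windows of these 35 genes and 54% over all windows. A match is a description of letters and not a site of binding.

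Type V collagen, which starts fibres and limits their width, is built from the products of Col5a1 and Col5a2. Col5a1 stood at 23.7, 15.0, 7.23 and 23.1 FPKM, so that MKI held 30.5% of the WT level. Col5a2 stood at 33.6, 31.5, 34.2 and 30.9 FPKM and lay within 0.12 of WT in every knock-in column. The 2 chains of this type therefore differed in MKI: the log2 difference was -1.65 for Col5a1 and 0.03 for Col5a2, the latter changing sign with the scaling. The remaining fibrillar genes, Col5a3 and Col24a1, were below the filter, at 0.0300 to 0.187 and 0.778 to 1.38 FPKM. Over the 5 fibrillar genes past the filter the median difference was -0.30 (PKI), -0.72 (MKI) and 0.04 (HOMO). In PKI all 5 lay below WT and none was 2-fold lower, against 59.5% and 1.45% of all genes. In MKI 4 lay below and 2 were 2-fold lower, against 55.4% and 19.1% of all genes.

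The cartilage class had the lowest median difference of the 4 classes in PKI and in MKI, although in MKI basement membrane collagens were lower with a pseudocount of 1 (-1.15 against -1.12) and with a 5 FPKM filter (-1.55 against -1.18). Col2a1, whose product is the main fibre of cartilage (chromosome 15), stood at 68.0, 27.8, 18.8 and 58.1 FPKM. It was the fourth highest collagen in WT and HOMO and the sixth highest in PKI and MKI, and its difference from WT was -1.27 in PKI, -1.83 in MKI and -0.23 in HOMO. Col11a1 and Col11a2 encode chains of type XI collagen, which sets the width of cartilage fibres. Col11a1 stood at 13.4, 8.38, 14.4 and 11.1 FPKM, lowest in PKI and slightly above WT in MKI. Col11a2 stood at 2.36, 0.754, 0.542 and 2.27 FPKM, 2-fold below WT in both PKI (-1.19) and MKI (-1.46), although in PKI it was not 2-fold lower with a pseudocount of 1 or quantile normalization. Col27a1, a fibrillar collagen of cartilage, stood at 5.62, 3.63, 1.19 and 4.75 FPKM, with 21.2% of the WT level in MKI.

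Type IX collagen coats the surface of cartilage fibres and is made of 1 chain each from Col9a1, Col9a2 and Col9a3. Col9a1 stood at 18.5, 14.3, 9.16 and 17.1 FPKM. Col9a2 stood at 7.52, 3.74, 0.768 and 6.68 FPKM, and its difference of -2.66 in MKI, 10.2% of the WT level, was the lowest of any collagen gene past the filter in any comparison with WT. Col9a3 stood at 10.2, 4.96, 4.22 and 8.74 FPKM. All 3 had the same order of columns, WT above HOMO above PKI above MKI, but Col9a2 lay far lower than its partners in MKI. In PKI all 7 cartilage collagens past the filter lay below WT (median -0.92) and 2 were 2-fold lower, Col2a1 and Col11a2. Of all genes 59.5% lay below WT there and 1.45% were 2-fold lower. In MKI 6 of 7 lay below (median -1.46) and 5 were 2-fold lower, against 55.4% and 19.1% of all genes. Col9a3 fell short of 2-fold there under quantile normalization (-0.83). In HOMO all 7 lay below, against 61.5% of all genes, with a median of -0.21 and none 2-fold lower.

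The starts of Col9a1 and Col9a2 are shown because these chains of a common protein parted most in MKI. The windows are chr1:24177439-24177588 for Col9a1 and chr4:121039416-121039565 for Col9a2, both on the plus strand of GRCm38.p6, with capitals as above.
Col9a1: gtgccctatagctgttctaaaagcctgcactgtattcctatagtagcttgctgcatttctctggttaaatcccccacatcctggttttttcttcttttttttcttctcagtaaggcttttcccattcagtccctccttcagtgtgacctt
Col9a2: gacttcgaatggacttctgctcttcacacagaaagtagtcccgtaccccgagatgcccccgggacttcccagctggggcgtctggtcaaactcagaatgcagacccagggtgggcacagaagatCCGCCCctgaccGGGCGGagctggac
The Col9a2 window is 61.3% G and C and holds 2 matches to the GC box, 26 and 14 bases before the gene, on opposite strands. The Col9a1 window is 42.7% G and C and holds no match to these 3 motifs, which says only that the letters are not in this window. What these sequences contribute to the levels was not tested.

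Genes other than collagens that mark cartilage cells lay below WT with the collagens in PKI, and were divided in MKI. Of 7 markers 6 passed the filter, and Comp, a matrix protein of later cartilage, was at 0 to 0.167 FPKM. In PKI all 6 lay below WT with a median of -0.70, against 59.5% of all genes below. In MKI 3 lay below and 3 above with a median of 0.02, Matn4 being 2-fold lower (-1.30). Of all genes 55.4% lay below WT there and 19.1% were 2-fold lower. The summed level of the 7 markers was 48.0, 32.6, 49.9 and 47.9 FPKM. Sox9 made up the largest part of this sum in every column, so the sum mainly follows that gene. Sox9, the transcription factor that switches on Col2a1 and other cartilage genes, stood at 26.5, 19.7, 33.0 and 30.0 FPKM, highest in MKI, where Col2a1 was lowest. Acan, the large proteoglycan of cartilage, stood at 2.36, 0.783, 1.98 and 2.09 FPKM, and Matn4, a matrix adaptor protein, at 9.20, 4.07, 3.44 and 7.58 FPKM. Matn1, another matrilin, stood at 1.12, 0.327, 0.429 and 1.17 FPKM. Acan, Matn1 and Sox9 were thus lowest in PKI, and Matn4 was lowest in MKI. In MKI Acan differed from WT by -0.20. The markers above WT there were Sox9 (0.31), Hapln1 (0.38) and Cnmd (0.24). The part of cartilage cell number in the collagen values was not tested.

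Basement membrane collagens were lower in PKI and MKI and slightly above WT in HOMO. Col4a1 and Col4a2 encode the chains of the type IV network found under almost every epithelium and around vessels. Col4a1 stood at 32.2, 20.4, 10.4 and 35.4 FPKM and Col4a2 at 21.8, 13.3, 7.09 and 24.4 FPKM. For the pair, differences from WT were -0.64 and -0.69 (PKI), -1.58 and -1.55 (MKI) and 0.14 and 0.16 (HOMO), so the 2 genes differed alike. They lie head to head on chromosome 8 of GRCm38, Col4a1 at 11198423 to 11312889 on the minus strand and Col4a2 at 11312805 to 11449287 on the plus strand. The RefSeq starts used for the promoter table are 21 bases apart. Such a shared start region is textbook for type IV collagen genes.

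Col18a1, whose product is a proteoglycan of basement membranes and carries endostatin at its end, stood at 23.4, 21.0, 7.48 and 27.3 FPKM. It lay near WT in PKI (-0.15) and 2-fold lower in MKI (-1.58). Col15a1, its relative around muscle and vessels, stood at 5.74, 2.28, 3.02 and 6.34 FPKM and showed the opposite order, 2-fold lower in PKI (-1.17) and not in MKI (-0.83). The X-linked pair Col4a5 and Col4a6 lay between 3.08 and 6.14 and between 0.617 and 1.68 FPKM, with neither 2-fold away from WT at the main pseudocount. In PKI all 6 basement membrane collagens past the filter lay below WT (median -0.44, and -0.22 without the filter) and 1 was 2-fold lower. Of all genes 59.5% lay below WT there and 1.45% were 2-fold lower. All 6 lay below WT in MKI too (median -1.22), with 3 of them 2-fold lower, against 55.4% and 19.1% of all genes. In HOMO 5 of 6 lay above WT (median 0.13), against 38.5% of all genes.

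Proteins that assemble with type IV collagen were also lower in PKI and MKI. Of 17 listed genes (laminin chains, nidogens, perlecan, agrin, Sparc and Pxdn) 15 passed the filter. In PKI 13 lay below WT with none 2-fold lower (median -0.56), against 59.5% and 1.45% of all genes. In MKI 14 lay below with 4 2-fold lower (median -0.41), against 55.4% and 19.1% of all genes. In HOMO 6 lay below (median 0.01), against 61.5% of all genes. Hspg2, encoding perlecan, stood at 18.2, 9.31, 5.27 and 20.3 FPKM, and Agrn, encoding agrin, at 57.3, 35.7, 22.7 and 53.1 FPKM. Both had the order of Col4a1 except that agrin was highest in WT. Lama5, a laminin chain of epithelium and vessels, stood at 4.14, 5.11, 1.45 and 4.76 FPKM, and Lamc3 at 2.31, 1.38, 0.730 and 2.60 FPKM. The 4 endothelial markers Pecam1, Cdh5, Kdr and Tek all lay below WT in PKI, as did 59.5% of all genes. In MKI 3 of 4 lay above WT, against 44.6% of all genes. The summed level of the 4 markers was 39.0, 24.3, 43.0 and 44.9 FPKM. Of these markers Cdh5 was the one below WT in MKI (-0.38). The part of vessel content in the basement membrane values was not tested.

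**Figure D3:**
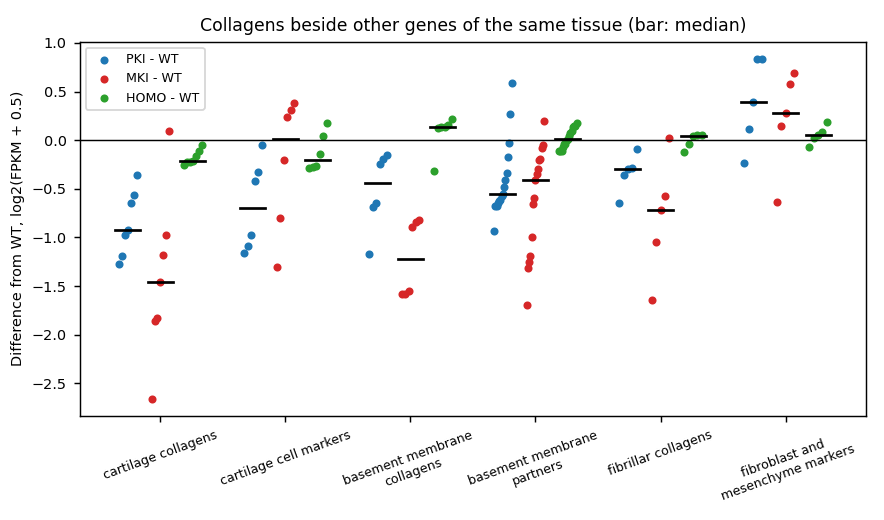
Differences from WT on the log2(FPKM + 0.5) scale for 3 collagen classes and for listed non-collagen genes of the matching tissue, with 1 point per gene past the filter and a bar at the median. In MKI the cartilage collagens have a median of -1.46 and the cartilage cell markers one of 0.02, whereas in PKI both medians lie below -0.6.

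The other collagens include genes that were highest and genes that were lowest in MKI. Type VI collagen forms beaded filaments around cells from the products of Col6a1, Col6a2 and Col6a3. Col6a1 stood at 13.98, 11.1, 12.61 and 17.6 FPKM, Col6a2 at 14.1, 11.8, 9.64 and 17.6 FPKM and Col6a3 at 13.8, 8.26, 8.08 and 13.1 FPKM. Col6a1 and Col6a2 had the highest HOMO differences among collagen genes past the filter, at 0.32 and 0.31, and none of the 3 was 2-fold away from WT. Col12a1 and Col14a1 encode collagens that decorate type I fibres. They stood at 18.9, 14.7, 23.8 and 17.3 FPKM and at 10.5, 7.39, 12.665 and 10.1 FPKM, both highest in MKI (differences 0.33 and 0.26) and lowest in PKI. Col16a1, of the same interrupted family, stood at 4.17, 3.23, 0.465 and 3.43 FPKM, and was among the lowest in MKI at 11.2% of WT.

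Col26a1, a short collagen described in reproductive tissues, stood at 36.6, 46.6, 9.23 and 32.6 FPKM. It was the fifth highest collagen in WT, had the highest difference from WT in PKI among collagen genes past the filter (0.35) and was 2-fold lower in MKI (-1.93). Col8a2, of the sheet that lines the cornea and vessels, stood at 10.1, 11.0, 3.48 and 8.93 FPKM, while its partner Col8a1 lay between 1.95 and 2.96 FPKM. The membrane collagen gene Col25a1, expressed in neurons, stood at 8.99, 6.45, 10.1 and 9.19 FPKM. The membrane collagen gene Col23a1 lay between 3.90 and 7.50 FPKM, and Col22a1, of tissue junctions, between 0.376 and 1.13 FPKM. Over the 12 genes of this class past the filter the median was -0.32 (PKI), -0.62 (MKI, and -0.33 under quantile normalization) and -0.06 (HOMO). In MKI 3 of the 12 were 2-fold lower (Col16a1, Col26a1 and Col8a2), against 19.1% of all genes.

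Collagens that anchor epidermis went with epidermal genes in PKI, although they were low; they are named here after their values were seen. Col17a1, of the hemidesmosome, stood at 0.922, 1.68, 0.528 and 0.911 FPKM, and Col7a1, of the anchoring fibril, at 0.586, 0.781, 0.134 and 0.599 FPKM. Both were highest in PKI and lowest in MKI. The epidermal markers Krt5, Krt14, Krt15 and Trp63 were all 2-fold higher than WT in PKI, against 0.7% of all genes, and their summed level was 26.6, 61.0 and 18.4 FPKM in WT, PKI and MKI. It was 25.4 FPKM in HOMO. The part of epidermal cell number in these values was not tested.

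Since FPKM is corrected for length, levels of chains of the same type can be compared within a column. The ratio of Col4a1 to Col4a2 was nearly constant, at 1.48, 1.53, 1.47 and 1.45, so that its highest value was 1.06 times its lowest. The ratio of Col1a1 to Col1a2 was 0.641, 0.613, 0.507 and 0.636, with MKI the lowest. That of Col6a1 to Col6a2 was 0.994, 0.938, 1.31 and 1.00, with MKI the highest. Other pairs spread much further. Col5a1 to Col5a2 ran from 0.211 in MKI to 0.749 in HOMO, and Col9a2 to Col9a1 from 0.0838 in MKI to 0.407 in WT. Col11a1 to Col11a2 was 5.67, 11.1, 26.5 and 4.91, and Col8a2 to Col8a1 was 3.96, 3.72, 1.21 and 4.59. Leaving MKI out, the highest ratio was 1.05 times the lowest for type I, 1.57 times for type V, 1.56 times for Col9a2 to Col9a1, 2.26 times for type XI and 1.23 times for type VIII. The second type IX pair, Col9a3 to Col9a1, was 0.552, 0.346, 0.461 and 0.511, lowest in PKI, with the same spread of 1.60 times with and without MKI. The second type IV pair, Col4a5 to Col4a6, was 4.10, 4.11, 4.99 and 2.88, and Col6a3 to Col6a1 was 0.989, 0.745, 0.641 and 0.747. For the pairs of types V, VIII and XI and for Col9a2 to Col9a1 most of the spread thus lay in the MKI column, while Col4a1 and Col4a2 kept their ratio there.

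**Figure D4:**
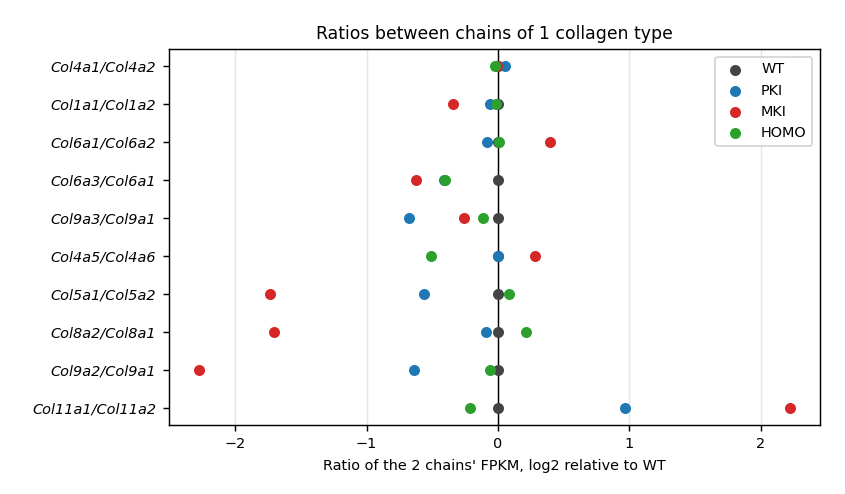
Ratio of FPKM between 2 chains of the same collagen type, as log2 relative to the WT ratio, with 1 point per genotype column and pairs ordered by how far the ratio spread. Col4a1/Col4a2 lies near 0 in every column, and the MKI points of Col5a1/Col5a2, Col8a2/Col8a1, Col9a2/Col9a1 and Col11a1/Col11a2 lie farthest from 0.

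The collagen genes that lay above WT in MKI all had long genomic spans. With a split at 100 kb, chosen after the values were seen, all 13 collagen genes with a shorter RefSeq span lay below WT in MKI and 7 were 2-fold lower (median -1.05). Of the 17 with a span of 100 kb or more, 11 lay below and 6 above (median -0.84), and 6 of the 17 were 2-fold lower. Those above WT were Col5a2, Col8a1, Col11a1, Col12a1, Col14a1 and Col25a1. Length went the same way across all genes in MKI. Of the 10474 shorter genes 6197 lay below WT and 2283 were 2-fold lower (median -0.20). Of the 1859 longer genes 714 lay below and 1145 above, and 78 were 2-fold lower (median 0.14). By their median, the long collagen genes thus lay below WT where long genes in general lay above it. Spearman's rho between the MKI difference and span was 0.342 over 12333 genes and 0.293 over the 30 collagen genes, given as a description since genes of a column share its library. In PKI it was -0.279 over all genes and 0.237 over the collagen genes. The part of transcript length or base composition in the MKI values was not tested.

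HOMO was next set against the columns with a single insertion. Against PKI, 25 of 30 collagen genes were higher in HOMO (median 0.39, beside 0.01 over all genes, of which 51.1% were higher) and 3 were 2-fold higher, Col15a1, Col11a2 and Col2a1, against 1.55% of all genes. All 4 hepatocyte markers were 2-fold higher there too. All 7 cartilage collagens were higher, with a median of 0.76. Against MKI, 24 of 30 were higher in HOMO (median 0.91, beside 0.06 over all genes, of which 52.4% were higher) and 12 were 2-fold higher, against 19.7% of all genes. Between MKI and PKI, 23 of 30 were lower in MKI (median -0.51, beside -0.04 over all genes, of which 51.8% were lower) and 7 were 2-fold lower, against 16.6% of all genes. These 7 were Col5a1, Col18a1, Col9a2, Col27a1, Col16a1, Col26a1 and Col8a2, and Col5a1 lay at -1.01, short of 2-fold with a pseudocount of 1 and under both other scalings. None of the 30 was 2-fold higher in MKI than PKI, against 2.55% of all genes.

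A maternal insertion can be compared in 2 pairs that share no column, MKI against WT and HOMO against PKI. For 21 of 30 collagen genes (70.0%) the first difference was negative and the second positive, a combination that 34.3% of all genes had. Of the 30, 3 lay lower in both pairs and 4 higher in both, against 2798 and 2236 of all 13279 genes. For no collagen gene were both differences past 2-fold in the same direction. Only 74 of all 13279 genes were so, too few to set collagens apart. For the paternal insertion, PKI against WT and HOMO against MKI, 21 of 30 were lower in the first pair and higher in the second, against 32.4% of all genes. The maternal and paternal counts are drawn from the same 4 columns, so the second is not a separate result. With single columns these differences between pairs could not be tested.

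Genes that make and crosslink collagen were described from a list of 32, of which 30 passed the filter. In PKI 23 lay below WT with none 2-fold lower (median -0.19), against 59.5% and 1.45% of all genes. In MKI 21 lay below with 8 2-fold lower (median -0.45), against 55.4% and 19.1% of all genes. In HOMO 16 lay below with a median of -0.03, against 61.5% of all genes below. P3h4, needed for lysine hydroxylation of collagen, stood at 12.2, 12.3, 1.92 and 8.60 FPKM, and Fkbp10, a chaperone of the same step, at 18.9, 18.3, 5.64 and 21.4 FPKM. P3h3 and Plod3, which take part in hydroxylation, stood at 15.0, 12.9, 4.83 and 12.801 FPKM and at 14.1, 10.4, 5.46 and 17.1 FPKM. All 4 were lowest in MKI, and PKI lay close to WT for P3h4 and Fkbp10. The chaperone gene Serpinh1, which binds newly made collagen and is named here after its values were seen, stood at 174, 202, 96.8 and 195 FPKM, so that in PKI it lay above WT while most collagens lay below.

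Collagen receptors and regulators had medians nearer to WT than the synthesis genes in MKI only. Of 10 receptor genes 7 passed the filter, with medians of -0.26 (PKI), 0.11 (MKI) and -0.02 (HOMO), and 2 were 2-fold lower in MKI (19.1% of all genes were). These were the receptor kinase gene Ddr1, at 25.9, 19.0, 6.12 and 27.4 FPKM, and Mrc2, which takes up collagen fragments, at 14.4, 12.02, 4.76 and 15.5 FPKM. Itgb1, the shared chain of collagen-binding integrins, was highest in MKI at 148 FPKM, against 95.0 in WT. Of 16 regulators 15 passed the filter, with medians of -0.26, -0.05 and -0.17, and 3 were 2-fold lower in MKI, which is near the 19.1% of all genes. Scx, the tendon transcription factor, stood at 9.32, 11.5, 2.23 and 7.24 FPKM. The other listed tendon markers, Tnmd and Mkx, lay above WT in MKI (0.30 and 0.65). Tgfb1, a growth factor that raises collagen synthesis, stood at 6.46, 4.21, 2.86 and 7.15 FPKM. Creb3l1, a regulator of Col1a1 in bone, stood at 1.79, 1.91, 0.582 and 1.67 FPKM. Sox5, a partner of Sox9, was highest in MKI at 10.1 FPKM against 7.67 in WT. Among fibroblast and mesenchyme markers 4 of the 5 past the filter lay above WT in PKI and in MKI (medians 0.39 and 0.27). Of all genes 40.5% and 44.6% lay above WT there. Of the fibrillar collagens 5 of 5 and 4 of 5 lay below WT, against 59.5% and 55.4% of all genes. The summed level of the fibroblast and mesenchyme markers, with Dpt near 0, was 174, 228, 211 and 180 FPKM.

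The small-RNA table allowed microRNAs linked to collagen to be read in the same genotypes. The miR-29 family is known for repressing many collagen transcripts by pairing of its seed (bases 2 to 8, in capitals) with their 3′ ends. Its 3 mature members have a common seed, and miR-140-3p, from a microRNA gene that is active mainly in cartilage, has another. The sequences are RefSeq's, on GRCm38.p6.
miR-29a-3p: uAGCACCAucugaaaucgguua
miR-29b-3p: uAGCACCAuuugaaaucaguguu
miR-29c-3p: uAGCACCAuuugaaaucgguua
miR-140-3p: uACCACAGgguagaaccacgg
Mir29a lies on chromosome 6 (mature sequence 31062673 to 31062694, minus strand) and Mir29c on chromosome 1 (195037600 to 195037621, plus strand). miR-29b-3p is made from a locus beside each of them. Mir140 lies on chromosome 8 (107551288 to 107551308, plus strand).

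All 3 mature miR-29 3p sequences were highest in HOMO. Levels are in rpm (reads scaled to a common library size), with 1 read worth 0.0993 to 0.125 rpm. miR-29a-3p stood at 38.4, 37.7, 54.2 and 463 rpm, miR-29b-3p at 1.31, 1.09, 2.55 and 10.7 rpm, and miR-29c-3p at 1.19, 1.19, 1.97 and 5.61 rpm. The ratio of HOMO to WT was 12.04 for miR-29a-3p (95% interval 10.7 to 13.5), 8.20 for miR-29b-3p (4.36 to 17.0, from 86 and 11 reads) and 4.72 for miR-29c-3p (2.34 to 10.5, from 45 and 10 reads). These exact intervals cover counting error between 2 columns only, and it is not known whether a column is 1 library or a combination. The 5p arms of the same precursors did not all follow: miR-29c-5p stood at 89, 78, 123 and 77 reads (HOMO to WT 0.907, interval 0.660 to 1.24), and the other 5p arms had 0 to 15 reads. In the same column 0 of 30 collagen genes were 2-fold lower than WT, which is near the 0.783% of all genes. Col1a1, Col1a2 and Col3a1, which carry known miR-29 sites, were at 103.0%, 103.8% and 103.6% of WT. miR-140-3p stood at 7404, 8254, 8071 and 8799 rpm and miR-140-5p at 1359, 1082, 1852 and 1429 rpm. The 5p arm was thus highest in MKI and lowest in PKI, as Sox9 was. An action of these microRNAs on collagen transcripts was not tested.

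**Figure D5:**
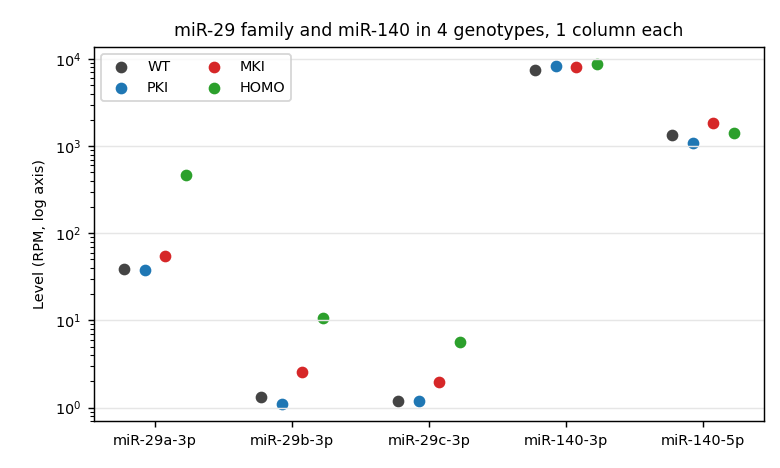
Level of the miR-29 family and of both miR-140 arms in rpm on a log axis, with 1 point for each genotype column. The HOMO point lies above the others for all 3 miR-29 members, at 463, 10.7 and 5.61 rpm, while the miR-140 points lie close together.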

How the data were processed

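Collagen transcripts were read from 1 mRNA column per genotype. The tools named in the submitters' processing notes are StringTie 1.3.4d, HISAT2 2.0.4, cutadapt 1.9, edgeR and DESeq2, with GRCm38 as build, and per the labels' protocols RNA was selected with oligo(dT) beads and second strands were marked with dUTP. The headers name no unit: FPKM by the authors is the unit inferred for the mRNA values, which are not whole and whose column sums differ. The deposited microRNA values are RPM, as every column has the same total, and those printed were whole multiples of the smallest value to within 0.02 of a read (8016848 to 10072670 reads per column). The long non-coding table was not used.

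Ensembl IDs were matched to symbols (22022 rows), and rows with a common symbol were summed. Genes at 1 FPKM or more in at least 2 columns were kept, and differences of log2(FPKM + 0.5) were taken in Python 3.11.15 (tested on simulated data). The design fixed limma for 2 columns per genotype, which could not be fitted with 1, so 2-fold differences replaced tests. Values in 4 columns are given for members at 10 FPKM or more in any column or past 2-fold with at least 2 FPKM in the higher column, and for up to 4 members per other list with the largest range. Members and lists were chosen with earlier results of these data known. Other settings tried were pseudocounts of 0.1 and 1, all genes unfiltered, a minimum of 5 FPKM, quantile normalization and unweighted trimmed-mean (TMM) scaling.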

Additional observations from a re-analysis of the deposited data

Results flagged for a closer look

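Col2a1 and Col11a2 were past 2-fold in opposite directions in pairs of columns that share no column, which singled them out. With a maternal insertion Col2a1 differed by -1.83 in MKI against WT and by 1.05 in HOMO against PKI, and Col11a2 by -1.46 and 1.14. With a paternal insertion Col2a1 differed by -1.27 in PKI against WT and by 1.60 in HOMO against MKI, and Col11a2 by -1.19 and 1.41. Among all 13279 genes 58 (0.437%) had the first combination and 50 (0.377%) the second. With a pseudocount of 1, Col11a2 was short of 2-fold in PKI against WT (-0.94) and in HOMO against PKI (0.90), and under quantile normalization in PKI against WT (-0.98). The maternal and paternal statements describe the same 4 values and are not separate results, and the difference between pairs was not tested because each genotype has 1 column.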

How the results depend on the processing

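No paired analysis was possible because each table holds 1 column per genotype with no replicate number, and for the same reason no replicate could be left out. Over the 6 comparisons and 6 alternatives the counts of collagen genes past 2-fold stayed within 1.5 times their main values, and their medians kept their direction, except for HOMO against WT: there the median of -0.05 became 0.000139 under quantile normalization and 0.0144 under TMM scaling, that of the other class became 0.00955 under TMM scaling, and that of the fibrillar class became -0.022 without the filter. Under the alternative pseudocounts and scalings, the number of genes below WT in HOMO was 13 to 18 of 30, and 24 of 30 in MKI throughout. Quantile normalization moved the median of all genes in MKI against WT from -0.11 to 0.12, and changed the split past 2-fold over all genes from 162 higher and 2532 lower to 580 and 1657; over collagens it was 0 and 12 rather than 0 and 13. In PKI the split over all genes went from 93 and 193 to 105 and 128, and over collagens from 0 and 3 to 0 and 2. Without the filter the median over 44 genes in MKI against PKI was -0.29 rather than -0.51, and that of basement membrane collagens in HOMO against PKI 0.345 rather than 0.575. The fibrillar PKI median of -0.30 was -0.47 under quantile normalization and -0.20 under TMM scaling. In HOMO against WT, quantile normalization and TMM scaling moved the basement membrane median from 0.13 to 0.20 and 0.21 and the cartilage median from -0.21 to -0.14 (both). The unknown depth of the FPKM values limits what low genes can show.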

Other observations

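Some collagen genes that are neighbours on their chromosome had unlike shares of the WT level in MKI, while others were closer. Col3a1 and Col5a2 are 24.6 kb apart on chromosome 1; MKI held 66.9% of the WT level of Col3a1 and 101.8% of that of Col5a2. Col9a1 and Col19a1 are 4.94 kb apart on the same chromosome, with 49.6% of WT for Col9a1 and 136% for Col19a1, a gene below the expression filter at 0.365 to 1.07 FPKM. Col6a1 and Col6a2, 85.2 kb apart on chromosome 10, held 90.2% and 68.5% of WT in MKI. They were closer in PKI (79.3% and 84.0%) and HOMO (125.9% and 124.9%). In MKI the neighbours Col4a1 and Col4a2 held 32.4% and 32.5% of WT. Col4a5 and Col4a6, 1.27 kb apart, held 50.2% and 41.2% there.

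Among genes that break down or protect collagen, 5 of 9 past the filter lay below WT in MKI, near the 55.4% of all genes. Of 12 listed, these 9 passed the filter, with PKI, MKI and HOMO medians of -0.07, -0.41 and 0.04. In no knock-in column was any of them past 2-fold, where 19.1% of all genes were 2-fold lower in MKI. The gelatinase gene Mmp2 stood at 40.5, 33.7, 20.04 and 41.6 FPKM (order as above), the membrane-bound collagenase gene Mmp14 at 34.9, 32.0, 19.5 and 40.1 FPKM, the protease gene Fap at 4.11, 4.98, 7.12 and 3.65 FPKM, and the inhibitor gene Timp1 at 1.95, 3.61, 0.766 and 3.45 FPKM.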
